A study of Mus musculus with 14 samples.

Results

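The lysyl oxidase family of the mouse has 5 genes, Lox and Loxl1 to Loxl4, and all 5 were read on the arrays of this study. The genes were chosen by name, but the family was picked because of measured values: Lox stood higher in lungs given the fibre CCF, and in the mean of the 3 fibres, than in vehicle lungs. Of 56605 array probes, 9 carried a RefSeq accession of a family gene, and 8 of these passed the background filter, which asked for a signal well above background on 3 or more of 14 arrays. All 5 genes kept at least 1 probe. They stand among 30579 genes tested.

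Lysyl oxidases are secreted enzymes that oxidise lysine side chains of collagens and elastin, after which the chains link to each other and the fibres become insoluble. The enzymes need copper, and Lox and Loxl1 are made as proenzymes that proteases of the Bmp1 family cleave outside the cell. In the lung they hold together elastic fibres, interstitial collagen and basement membranes, and they are widely studied in fibrosis.

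The RNA came from whole lungs of male C57BL/6N mice, taken 1 month after carbon fibre was given by the trachea, 200 µg to each mouse, and each mouse had 1 array. VCF was the carbon fibre before recycling, CCF the fibre after carbonization and RCF the fibre after firing, with 3 mice each, and 5 control mice received PBS. The mice carried no transgene per the labels, their age is not stated there, and the submitters describe the samples as biologically independent. All 3 comparisons with vehicle share the same 5 control mice.

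Arrays differed in brightness and in slide. The 75th percentile of the processed signal ran from 277 to 2953 intensity units, and VCF 1, CCF 2 and RCF 1 were the 3 dim arrays, at 277, 323 and 375. The share of probes well above background lay between 47.1% in VCF 1 and 70.0% in RCF 2. Slide 1 held VCF 1 and 2, CCF 1 and 2, RCF 1 and control 1 and 2. Slide 2 held VCF 3, CCF 3 and control 3, and slide 3, scanned on another day, held RCF 2 and 3 and control 4 and 5. All 10 genes chosen to mark lung epithelium and endothelium, among them the surfactant genes Sftpc and Sftpb, were well above background on all 14 arrays. Values below are log2 signals relative to the 75th percentile of the array, so that 0 is that percentile and 1 unit is a doubling. A difference is a fibre mean minus the control mean, with limma's standard error after ±, and p-values were adjusted by Benjamini-Hochberg over every gene tested, with a threshold of 0.05. The arrays limit the precision through their number. In whole tissue, fewer cells of a type and less RNA per cell cannot be told apart.

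Lox, the founding member, had log2 levels of 1.46, 1.51 and 0.39 in the VCF lungs (VCF 1 to 3), 1.11, 1.40 and 1.01 in the CCF lungs and 0.64, 0.65 and 0.99 in the RCF lungs, against 0.08, 0.03, 0.10, 0.02 and 0.44 in control 1 to 5. Every CCF and RCF array lay above every control array, while VCF 3 lay just under control 5. The group means were 1.12 ± 0.63 in VCF, 1.17 ± 0.20 in CCF and 0.76 ± 0.20 in RCF, against 0.13 ± 0.18 in control (SD, n = 3 per fibre and n = 5 controls). From high to low the means ran CCF, VCF, RCF, control. VCF arrays lay on both sides of the CCF and RCF arrays, so that these neighbours did not separate. All RCF arrays lay below all CCF arrays by a gap smaller than the SD of either group. The share of all genes that separate RCF from CCF was not counted. On the second Lox probe, described below, RCF (−1.28 to −1.06) and CCF (−1.36 to −0.89) overlapped.

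**Figure D1:**
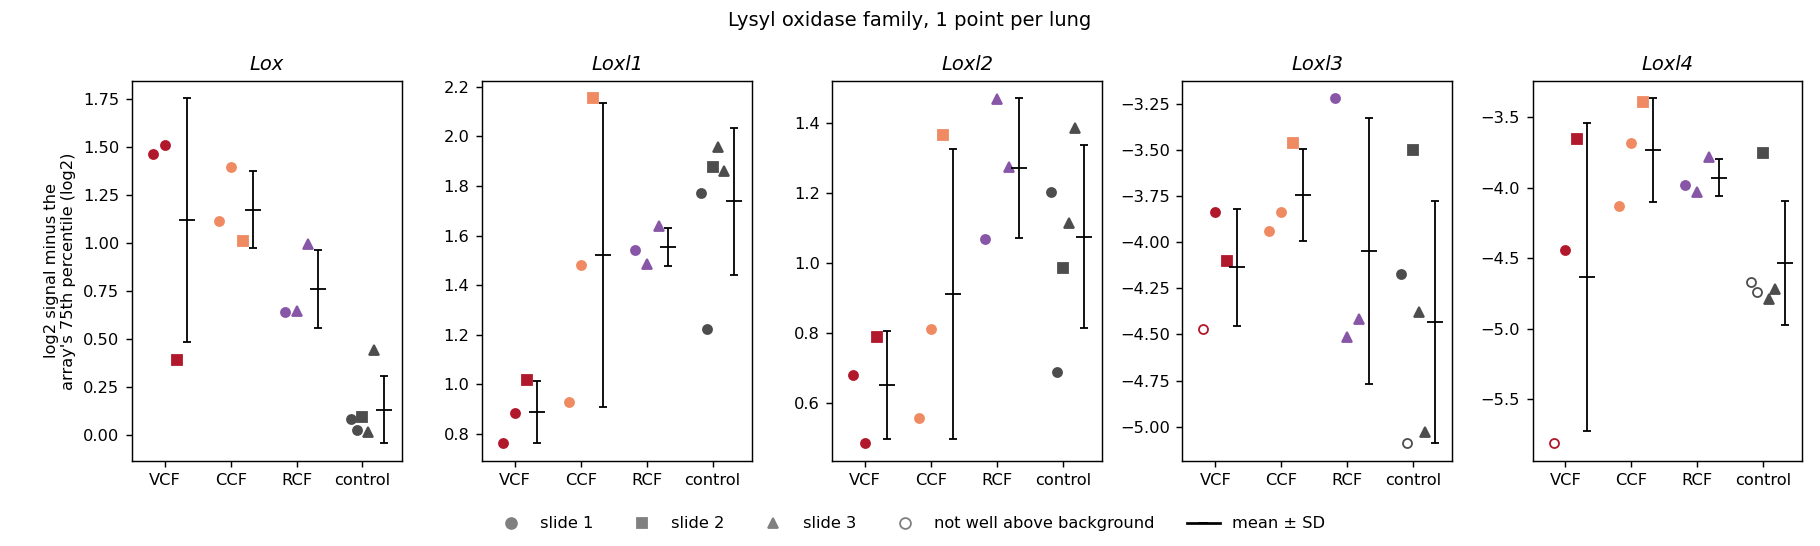
Log2 signal minus the array's 75th percentile (vertical axes, each panel with its own range) for the 5 family genes in VCF, CCF, RCF and control lungs, 1 point per lung, with the slide as the symbol, open points for probes not well above background and bars for mean ± SD. In the Lox panel the 3 CCF arrays lie between 1.01 and 1.40 and the 5 control arrays between 0.02 and 0.44, and in the Loxl1 panel the 3 VCF arrays lie between 0.77 and 1.02, below all control arrays.

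Set against control, the Lox level differed by 0.99 ± 0.24 in VCF (1.98-fold), 1.04 ± 0.24 in CCF (2.06-fold) and 0.63 ± 0.24 in RCF (1.54-fold). In the mean of the 3 fibres the difference was 0.88 ± 0.18 (1.85-fold). These values are a description with no test, since the CCF value and the fibre mean, which includes VCF and RCF, selected the family. In the same fit 5.99% of all genes passed the threshold in CCF, 0.0850% in VCF, 0.154% in RCF and 2.58% in the fibre mean. The Lox arrays of CCF and of RCF all lay above the control arrays. This belongs to the same description and gives no support, since Lox was picked for its rise. Groups that did not overlap, in either direction, were found for 16.3% of all genes in CCF and 11.4% in RCF. No other family gene, on its brightest probe, had all its CCF or RCF arrays above the control arrays.

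Between fibres, RCF minus VCF is the comparison of Lox that the choice of the family did not use. Lox had 0.64, 0.65 and 0.99 in the RCF lungs, against 1.46, 1.51 and 0.39 in the VCF lungs, and the difference was −0.36 ± 0.27 with a 95% interval from −0.94 to 0.22 (limma, adjusted p = 0.740). It did not pass the threshold, which 0.00981% of all genes passed. Without VCF 3, the low VCF lung, the difference was −0.72 (adjusted p = 0.322), and without VCF 2 it was −0.16 (adjusted p = 0.932). RCF 2 and 3 lay on slide 3, which held no VCF lung, and VCF 3 on slide 2, which held no RCF lung. With slide as a fixed block in limma the difference was −0.55 (adjusted p = 0.442). The interval includes 0 as well as a difference larger than that between RCF and control, so these 6 lungs do not show that the fibres act alike on Lox.

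Within slides, the Lox mean stood above control in every fibre. Slide 1 held all 3 dim arrays, and its RCF value is that of the dim array RCF 1 alone. On slide 1 the difference was 1.43 for VCF, 1.20 for CCF and 0.58 for RCF, over 1 or 2 lungs a group. On slide 2, with 1 lung a group, it was 0.29 for VCF and 0.91 for CCF, and on slide 3, with 2 lungs a group, 0.59 for RCF. The VCF value thus differed between its 2 slides by more than the standard error of the pooled value. So did the CCF value, by a smaller gap, while RCF had like values on its 2 slides. Without the 3 dim arrays the differences were 0.82 in VCF, 0.93 in CCF, 0.69 in RCF and 0.81 in the fibre mean.

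A second Lox probe, A_66_P138929, gave log2 levels of −0.99, −0.43 and −1.18 in the VCF lungs, −1.36, −0.89 and −1.35 in the CCF lungs and −1.09, −1.28 and −1.06 in the RCF lungs, against −1.85, −1.89, −1.36, −1.74 and −1.52 in control 1 to 5. All 9 fibre arrays lay above all 5 control arrays on this probe, though CCF 1 and control 3 both stood at −1.36. This probe reads the gene that was picked for its rise, on the same lungs, so its separation is a description with no test. With every probe as a row of its own, 1.55% of probes separated the 9 fibre arrays from the controls in either direction. Over genes, the share was 1.65%, and on the brighter Lox probe, A_55_P2911063, the 2 sets overlapped through VCF 3. The differences on the second probe were 0.81 in VCF, 0.48 in CCF, 0.53 in RCF and 0.60 in the fibre mean. In CCF the second probe thus gave less than the brighter one, 0.48 beside 1.04, a gap larger than the SD of the CCF arrays on either probe. In that layout 6.22% of probes passed the threshold in CCF and 2.55% in the fibre mean. Across the 14 arrays the 2 Lox probes correlated with Pearson r = 0.83 and Spearman rho = 0.83, a description over arrays that share slides and brightness.

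Loxl1, which acts on elastin and is needed for the renewal of elastic fibres in mice, had its lowest mean in VCF lungs. Its log2 levels were 0.77, 0.88 and 1.02 in the VCF lungs, 0.93, 1.48 and 2.15 in the CCF lungs and 1.54, 1.48 and 1.64 in the RCF lungs, against 1.77, 1.22, 1.88, 1.95 and 1.86 in control 1 to 5. All 3 VCF lungs lay below all 5 control lungs, which 7.38% of all genes did in either direction in VCF, whereas CCF spread from below the controls to above them. The difference was −0.85 ± 0.24 in VCF (1.80-fold lower, 95% interval −1.38 to −0.32) and did not pass limma over all genes (adjusted p = 0.237). In CCF it was −0.22 ± 0.24 (adjusted p = 0.657) and in RCF −0.18 ± 0.24 (adjusted p = 0.836). The fibre mean was −0.42 ± 0.19 (adjusted p = 0.242). Within slides the VCF difference was −0.67 on slide 1 and −0.86 on slide 2. For CCF it was −0.29 on slide 1 and 0.28 on slide 2, of opposite sign.

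**Figure D2:**
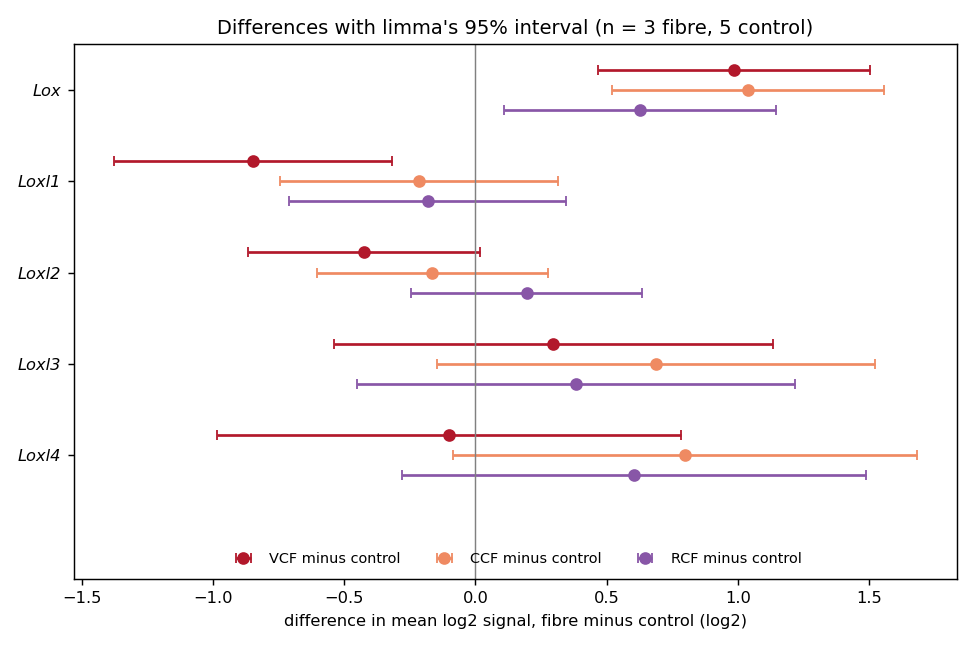
Difference in mean log2 signal, fibre minus control (horizontal axis, log2), for each family gene in VCF, CCF and RCF, with points for the difference and bars for limma's 95% interval (n = 3 fibre and n = 5 control lungs). Lox lies right of 0 with all 3 fibres, Loxl1 in VCF lies at −0.85, and the intervals of Loxl3 and Loxl4 are the widest and all include 0.

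With each gene read on its brightest probe, Loxl1 and Loxl2 followed each other over the lungs, and Lox correlated negatively with both. The second Loxl2 probe, described below, did not follow the brighter one (Pearson r = 0.01). These relations are therefore not shown for Loxl2 beyond the brighter probe. Across the 14 arrays Loxl1 and Loxl2 correlated with Pearson r = 0.81 and Spearman rho = 0.76. Lox correlated with Loxl1 at r = −0.48 and rho = −0.53, and with Loxl2 at r = −0.36 and rho = −0.33. These are descriptions over 4 groups and 3 slides, which the points share. Between fibres Loxl1 was higher in CCF than in VCF by 0.63 ± 0.27 and in RCF than in VCF by 0.67 ± 0.27, and neither passed the threshold (limma, adjusted p = 0.331 and adjusted p = 0.494).

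Loxl2, which crosslinks collagen IV of basement membranes, had log2 levels of 0.68, 0.49 and 0.79 in the VCF lungs, 0.56, 0.81 and 1.37 in the CCF lungs and 1.07, 1.47 and 1.27 in the RCF lungs, against 1.20, 0.69, 0.99, 1.12 and 1.39 in control 1 to 5. All fibre groups overlapped the control lungs, with VCF at the low end and RCF at the high end. The differences were −0.42 ± 0.20 in VCF (adjusted p = 0.521), −0.16 ± 0.20 in CCF (adjusted p = 0.690) and 0.20 ± 0.20 in RCF (adjusted p = 0.764). RCF minus VCF was 0.62 ± 0.23 and did not pass (adjusted p = 0.445). Within slides the CCF difference was −0.26 on slide 1 and 0.38 on slide 2, while VCF kept its sign (−0.36 and −0.20) and so did RCF (0.12 on slides 1 and 3).

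A second Loxl2 probe, A_55_P2131348, gave another order. Its log2 levels were −1.58, −2.28 and −2.16 in the VCF lungs, −2.28, −2.28 and −2.45 in the CCF lungs and −1.84, −2.20 and −2.02 in the RCF lungs, against −1.24, −1.55, −1.73, −1.72 and −2.0 in control 1 to 5. All 3 CCF lungs lay below all 5 control lungs on it, and 16.9% of all probes separated these groups in either direction. The difference in CCF was −0.69 ± 0.20 (adjusted p = 0.0580 with every probe a row). In RCF the difference was −0.37 ± 0.20, of the opposite sign to the brighter probe. The 2 Loxl2 probes did not follow each other over the 14 arrays (Pearson r = 0.01, Spearman rho = 0.01), so that the direction of Loxl2 in RCF depends on the probe.

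**Figure D3:**
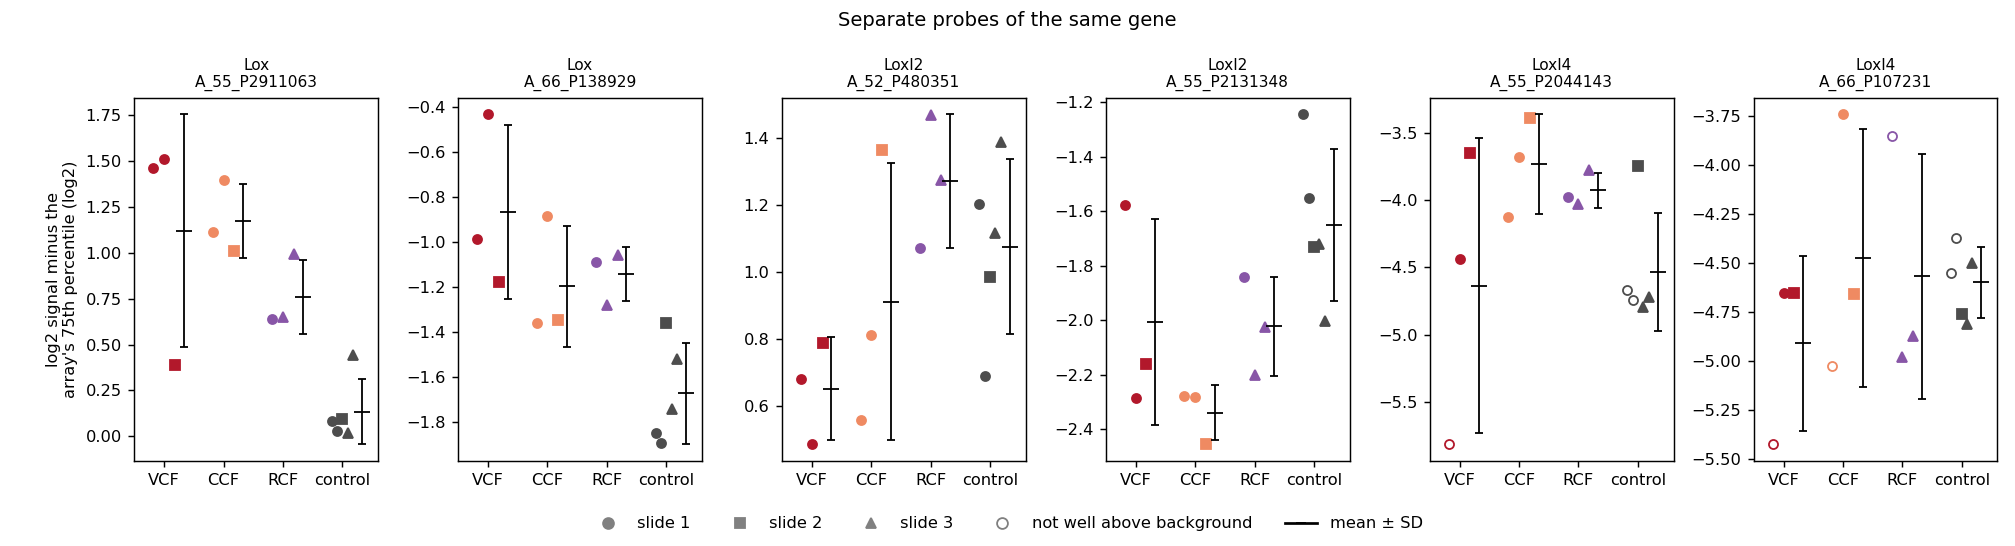
Log2 signal minus the array's 75th percentile for the separate probes of Lox, Loxl2 and Loxl4 that passed the background filter, in VCF, CCF, RCF and control lungs, with 1 point per lung, the slide as the symbol and bars for mean ± SD. On both Lox probes the fibre groups lie above the control mean, while CCF overlaps the controls on the first Loxl2 probe and below all of them on the second.

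Loxl3 and Loxl4, members with scavenger receptor domains like Loxl2, gave weak signals. Loxl3, which is needed for palate and spine development in mice, was well above background on 12 of 14 arrays. Its log2 levels were −4.47, −3.84 and −4.10 in the VCF lungs, −3.94, −3.84 and −3.46 in the CCF lungs and −3.22, −4.51 and −4.41 in the RCF lungs, against −4.17, −5.09, −3.50, −4.38 and −5.03 in control 1 to 5. Each fibre group lay inside the control range or overlapped it, and the control lungs alone spanned more than the CCF lungs. The difference in CCF was 0.69 ± 0.38 (adjusted p = 0.308), in VCF 0.30 ± 0.38 (adjusted p = 0.898) and in RCF 0.38 ± 0.38 (adjusted p = 0.751). Without RCF 1, the high and dim RCF array, the RCF difference was −0.03. Within slides the VCF difference was 0.47 on slide 1 and −0.60 on slide 2, CCF had 0.74 and 0.04, and RCF had 1.41 on slide 1 and 0.24 on slide 3.

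Loxl4, the remaining secreted member, was well above background on 11 of 14 arrays. Its log2 levels were −5.81, −4.44 and −3.65 in the VCF lungs, −4.13, −3.68 and −3.39 in the CCF lungs and −3.98, −4.03 and −3.78 in the RCF lungs, against −4.67, −4.74, −3.75, −4.79 and −4.72 in control 1 to 5. The CCF and RCF lungs lay above 4 of the 5 control lungs, and control 3 lay among them. The difference was 0.80 ± 0.41 in CCF (adjusted p = 0.259), 0.60 ± 0.41 in RCF (adjusted p = 0.592) and −0.10 ± 0.41 in VCF (adjusted p = 0.977). The VCF value rests on the dim array VCF 1, which was not above background for this probe, and was 0.49 without it. Within slides CCF had 0.80 on slide 1 and 0.36 on slide 2, RCF had 0.73 on slide 1 and 0.85 on slide 3, and VCF changed sign (−0.42 on slide 1 and 0.10 on slide 2). A second probe of Loxl4, A_66_P107231, above background on 9 of 14 arrays, differed by 0.13 ± 0.33 in CCF and 0.03 ± 0.33 in RCF. The remaining probe, A_52_P342526, was not well above background on any array and gives no fold.

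Counted together, 0 of the 4 genes Loxl1 to Loxl4 passed limma's threshold in any of the 7 comparisons. At an unadjusted p under 0.05 there was 1 of 4 in VCF (Loxl1), 0 of 4 in CCF, 0 of 4 in RCF and 1 of 4 in the fibre mean (Loxl1). Of all genes, 9.96% lay at that level in VCF, 23.7% in CCF, 12.9% in RCF and 19.5% in the fibre mean. Between fibres the counts at that level were 1 of 4 for CCF minus VCF, 0 of 4 for RCF minus CCF and 2 of 4 for RCF minus VCF, beside 13.8%, 9.26% and 9.05% of all genes. Over all genes 0.222% passed the adjusted threshold for CCF minus VCF and 0.00327% for RCF minus CCF. The 95% intervals of Loxl3 and Loxl4 reached from below 0 to above 1 log2 unit in CCF and RCF, and so include both no difference and one as large as that of Lox.

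The genes that work beside lysyl oxidase were followed in 6 lists by role, 73 genes of which 68 were measured. Of the 68, 2 rose and 0 fell past the threshold in CCF (5.99% of all genes passed in CCF), 1 rose in the fibre mean, and 0 passed in VCF or RCF. At an unadjusted p under 0.05 the counts were 19 in VCF, 14 in CCF, 8 in RCF and 19 in the fibre mean. As shares of the 68 these were 27.9% in VCF, 20.6% in CCF, 11.8% in RCF and 27.9% in the fibre mean, beside 9.96%, 23.7%, 12.9% and 19.5% of all genes. The CCF and RCF shares thus lay just below those of all genes, and the VCF and fibre mean shares above them. The median difference of the 68 was −0.16 in VCF, 0.03 in CCF and 0.02 in RCF, beside medians near 0 for all genes in VCF and CCF, and of 0.06 in RCF.

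Slc31a1, the copper importer of the plasma membrane, rose in CCF. Its log2 levels were 2.16, 2.56 and 2.28 in the VCF lungs, 2.55, 2.62 and 2.28 in the CCF lungs and 2.27, 2.21 and 2.37 in the RCF lungs, against 1.91, 1.78, 1.86, 1.98 and 1.96 in control 1 to 5. All 9 fibre lungs lay above all 5 control lungs, beside 1.65% of all genes that separated them in either direction. The difference was 0.59 ± 0.13 in CCF (1.5-fold, limma, adjusted p = 0.0237) and 0.47 ± 0.10 in the fibre mean (1.39-fold, adjusted p = 0.0324), while 0.44 ± 0.13 in VCF and 0.38 ± 0.13 in RCF did not pass (adjusted p = 0.236 and adjusted p = 0.214). The CCF call was lost without CCF 1 (adjusted p = 0.0786), CCF 2 (adjusted p = 0.103) or control 4 (adjusted p = 0.0531), and the call in the fibre mean was lost in 11 of the 14 fits that leave out 1 array. Over all genes, 1157 rose and 675 fell in CCF in the main fit. Without CCF 1 these were 404 and 127, without CCF 2 they were 128 and 130, and without control 4 they were 351 and 182. Within slides the CCF difference was 0.74 on slide 1 and 0.42 on slide 2. Of the other copper genes, none of 6 passed, and the list of 7 had a median of −0.10 in CCF. Slc31a2, named after its values had been seen, passed in CCF without control 3 (0.70, adjusted p = 0.0485).

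P4ha2, a subunit of the prolyl hydroxylase that stabilises the collagen helix, also rose in CCF. Its log2 levels were 2.88, 3.03 and 2.97 in the VCF lungs, 3.09, 3.16 and 3.07 in the CCF lungs and 2.79, 2.70 and 2.83 in the RCF lungs, against 2.60, 2.38, 2.69, 2.40 and 2.83 in control 1 to 5. The CCF and VCF lungs lay above all control lungs, and RCF lay among them. Groups that did not overlap, in either direction, were found for 16.3% of all genes in CCF and 7.38% in VCF. The difference was 0.53 ± 0.12 in CCF (1.44-fold, limma, adjusted p = 0.0311), 0.38 ± 0.12 in VCF (adjusted p = 0.296) and 0.20 ± 0.12 in RCF (adjusted p = 0.559). The CCF call was lost on leaving out any of the 3 CCF arrays, control 1 or control 4 (adjusted p = 0.0594 to 0.113). Fewer genes passed in CCF in these fits over all genes too, for example 594 rising and 299 falling without control 1. In the main fit 1157 rose and 675 fell. Within slides the CCF difference was 0.64 on slide 1 and 0.39 on slide 2. P4ha2 was the 1 of 12 measured genes of collagen hydroxylation and folding that passed, and the list median in CCF was 0.13.

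**Figure D4:**
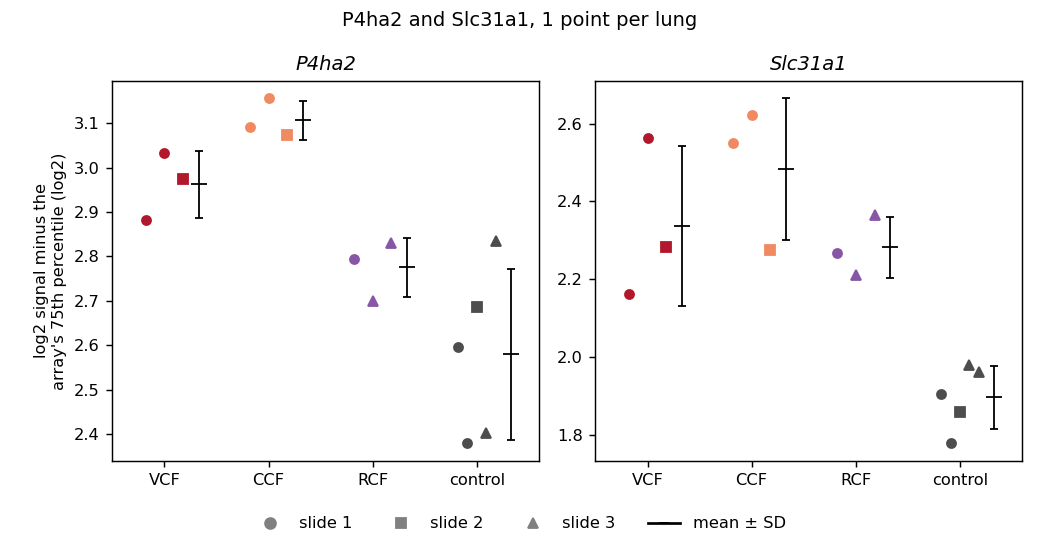
Log2 signal minus the array's 75th percentile of P4ha2 and Slc31a1 in VCF, CCF, RCF and control lungs, with 1 point per lung, the slide as the symbol and bars for mean ± SD. For Slc31a1 the 9 fibre lungs lie between 2.16 and 2.62 and the 5 control lungs between 1.78 and 1.98.

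Of the substrates, 10 of 11 listed collagens and elastin were measured, and 0 of 10 passed in any comparison with control. Their median difference was −0.55 in VCF, −0.09 in CCF and 0.11 in RCF, and in VCF all 10 differences lay below 0. The median of all genes in VCF was −0.0027, and the share of all genes below 0 was not counted. The 10 were read on the same lungs, so they are not separate results. Col3a1, the collagen III chain of compliant tissue, had −1.31 ± 0.23 in VCF (limma, adjusted p = 0.0630). It passed there with slide as a fixed block (adjusted p = 0.0445) or a random block (adjusted p = 0.0197) and with the filter on all arrays (adjusted p = 0.0330), and in the fibre mean with the random block (−0.51, adjusted p = 0.0475). Over all genes, 9 rose and 17 fell in VCF in the main fit. With the fixed block these were 7 and 28, with the random block 33 and 62, and with the filter on all arrays 36 and 61. Col1a1, a chain of collagen I, had −0.75 ± 0.26 in VCF (adjusted p = 0.336). Elastin itself, Eln, had −0.36 ± 0.35 in VCF (adjusted p = 0.836) and −0.13 in CCF. These 3 were named after their values had been seen. Col5a2 and Col4a2, chains of collagen V and of basement membrane collagen IV, had the lowest p of the list in CCF, with 0.48 ± 0.15 (adjusted p = 0.0762) and 0.34 ± 0.16 (adjusted p = 0.231). Without the 3 dim arrays these were 0.31 for Col5a2 (limma, adjusted p = 0.282) and 0.49 for Col4a2 (adjusted p = 0.173).

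The 14 genes of elastic fibre assembly, all measured, had 0 calls and medians of −0.27 in VCF, 0.02 in CCF and −0.04 in RCF. All 14 differences lay below 0 in VCF, where the median of all genes was −0.0027. The share of all genes below 0 was not counted. The 14 genes were read on the same VCF and control lungs, so they are not separate results. Fbln2, an elastin-binding fibulin, had −0.86 ± 0.25 in CCF (adjusted p = 0.0663) and −0.82 ± 0.25 in RCF (adjusted p = 0.195). Its lowest CCF and RCF levels were on the dim arrays CCF 2 (−1.33) and RCF 1 (−0.97). Without the 3 dim arrays its CCF difference was −0.55 (limma, adjusted p = 0.204). Ltbp3, which binds latent TGF-beta, had 0.37 ± 0.17 in CCF (adjusted p = 0.206).

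Of proenzyme processing and matrix partners, 10 of 12 were measured and 0 passed, with medians of −0.18 in VCF, 0.03 in CCF and 0.10 in RCF. Pcolce, the enhancer of procollagen cleavage by Bmp1, had −0.73 ± 0.15 in VCF (limma, adjusted p = 0.111), and passed there with slide as a random block (−0.71, adjusted p = 0.0398). Bmp1, the protease that cleaves the Lox proenzyme, had −0.33 ± 0.14 in VCF (adjusted p = 0.474). Both were named after their values had been seen. Thbs1, the matrix protein thrombospondin-1, had 0.92 ± 0.26 in CCF (adjusted p = 0.0585), and its sign turned to −0.47 where the mean of its probes was taken. Without control 5 it passed (1.10, adjusted p = 0.0319), which was 1 of 14 fits that leave out 1 array. Tll1, a protease related to Bmp1, had 0.41 ± 0.17 in CCF (adjusted p = 0.172). Over 25 alternatives its difference in CCF ran from 0.05 to 0.55, with limma's adjusted p up to 0.939.

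Of the regulators in the TGF-beta, hypoxia and Snail list, 15 of 16 were measured and 0 passed. The medians were −0.03 in VCF, 0.12 in CCF and 0.12 in RCF. Hif1a, the oxygen-regulated factor under which Lox is induced in hypoxic cells, had 0.65 ± 0.18 in CCF (adjusted p = 0.0588), and Tgfbr1, the type I receptor of TGF-beta, had 0.70 ± 0.21 in CCF (adjusted p = 0.0680). Hif1a passed without control 2 (adjusted p = 0.0373) and Tgfbr1 without VCF 1 (adjusted p = 0.0489). For each, this was 1 of 14 fits that leave out 1 array. Over those fits limma's adjusted p reached 0.221 for Hif1a and 0.183 for Tgfbr1. Over all 25 alternatives the Tgfbr1 difference in CCF ran from 0.35 to 0.78, with limma's adjusted p up to 0.730. Without the 3 dim arrays the CCF difference was 0.46 for Hif1a (adjusted p = 0.207) and 0.70 for Tgfbr1 (adjusted p = 0.104).

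**Figure D5:**
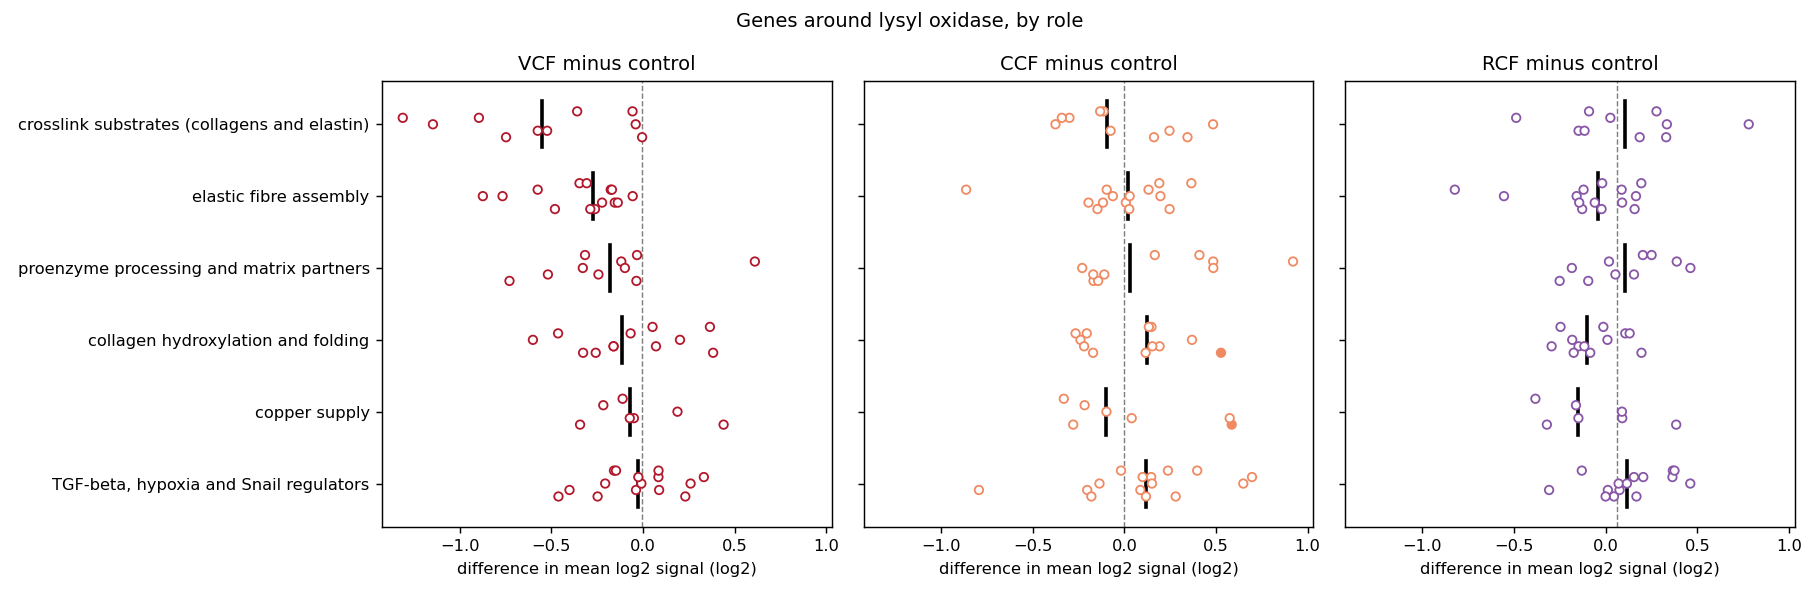
Difference in mean log2 signal, fibre minus control (horizontal axes, log2), for the 68 measured genes around lysyl oxidase in 6 lists, 1 point per gene, filled where the gene passed the threshold, with black bars for list medians and a dashed line for the median of all genes. In VCF the substrate median lies at −0.55 and all 10 substrates lie left of 0, and the 2 filled points in CCF are P4ha2 and Slc31a1.

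Markers of the cells that make these enzymes and of other cells were read beside the family. The summed level of 9 fibroblast markers, in units of the array's 75th percentile, was 52.9 to 66.4 in the VCF lungs, 52.1 to 58.4 in the CCF lungs and 58.4 to 60.6 in the RCF lungs, against 54.4 to 73.3 in the control lungs. The sum of 6 smooth muscle and myofibroblast markers was 31.96 to 43.7 in the VCF lungs, 32.4 to 54.1 in the CCF lungs and 38.0 to 39.0 in the RCF lungs, against 27.4 to 68.6 in the control lungs. Neither list had a call in any comparison with control, and the groups overlapped. Of 5 neutrophil markers 4 fell past the threshold in CCF (S100a8, S100a9, Retnlg and Cxcr2), which 5.99% of all genes passed. The other marker, Csf3r, had 0.07 there, and the list median was −1.69. The summed level was 279 to 409 in VCF, 115 to 156 in CCF and 166 to 257 in RCF, against 172 to 244 in control. All VCF lungs lay above the controls in this sum and all CCF lungs below them. Of single genes, 7.38% in VCF and 16.3% in CCF had groups that did not overlap in either direction. The part of these cells in the Lox differences was not tested. Of the cartilage markers Acan, Matn1, Snorc, Col9a1 and Cnmd did not pass the background filter. Ptcra and Rag1 of the thymus list were not well above background on any array, but Dntt of that list was on 11. All 3 measured thymus list genes had differences above 0 in CCF. Of these, 1 passed the threshold (Cd8a, a marker of T cells, by 0.61 ± 0.16), beside 5.99% of all genes. Sums of heart and skeletal muscle, fat and mesothelial markers overlapped between fibre and control lungs.

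For each family gene, on its brightest probe, the 3 named genes with the most similar pattern over the 14 arrays were found. They came from 15757 candidates and are a description with no test. Lox was followed by Paxip1 (Pearson r = 0.93, Spearman rho = 0.93), Cfap69 (r = 0.92, rho = 0.90) and Hnrnph3 (r = 0.90, rho = 0.87). Paxip1 had mean log2 levels of 1.62 in VCF, 1.76 in CCF and 1.52 in RCF, against 1.37 in control, a narrower range than that of Lox. Loxl1 was followed by Il27ra, Rbpjl and Fkbp10 (r = 0.91, 0.91 and 0.90), and Fkbp10 is also in the collagen folding list. Loxl2 was followed by Rasl2-9, Trex1 and Fnta (r = 0.89, 0.88 and 0.88). For Loxl3 the 3 were Adamts6, Gab1 and Med4 (r = 0.93, 0.91 and 0.90), and for Loxl4 they were Tubgcp5, Rbl1 and Pds5b (r = 0.94, 0.93 and 0.93). Arrays of one slide and of like brightness share part of such patterns.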

How the data were processed

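Total RNA of 14 lungs was labelled with Cy3 and hybridised to one-colour Agilent arrays with 62976 spots, including 3671 control spots. Per the file headers, Feature Extraction 10.7.3.1 made the deposited intensity values of the processed signal, which are background-subtracted and not scaled between arrays. The authors' deposited log2 values, for 32177 probes, equal, in each column, log2 of the processed signal minus 1 constant (99.4% to 99.6% of values within 0.001). That table leaves blank what was not well above background, and it is an alternative here. Its column medians were 0.30, −0.30 and −0.37 in VCF, −0.36, 0.16 and −0.34 in CCF, −0.17, −0.52 and −0.49 in RCF and −0.05, −0.03, −0.29, −0.50 and −0.49 in control. Its scale and direction follow from the values, it is not centred per gene, and the sources used here do not state where the constants come from.

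From these, log2 of the processed signal minus the 75th percentile of each array was computed, outlier spots were left out and spots of a probe averaged. Probes well above background on at least 3 arrays were kept (37984). Symbols came from RefSeq accessions (32994 probes with 1 symbol). A gene with several probes was represented by its probe of highest mean, and unnamed probes were kept singly, which gave 30579 genes (30574 where RCF takes part). Limma 3.58.1 in R 4.3.3, with the data.table package (version 1.17.8), was fitted to all 14 arrays without covariates and checked on simulated arrays. P-values are two-sided and adjusted by Benjamini-Hochberg within a comparison. Genes were named by a rule: all members and their probes, the 3 genes most like each member, list genes past the threshold (at most 4 a list), and from a list with none the 2 of lowest p in CCF. Col3a1, Col1a1, Eln, Pcolce, Bmp1 and the list genes that passed under an alternative alone fall outside the rule and were named after their values had been seen. Members and lists were chosen with earlier results of these data known. The alternatives were normexp background correction (offset 50, on the median signal), quantile scaling, the authors' table, no filter, a filter on all arrays, the mean of probes, slide as a fixed or random block, replicate number as a block, the compared groups alone, the fit without the dim arrays and without each array. Every probe as a row was added after seeing the data. No genome was used here, so no positions are given.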

Additional observations from a re-analysis of the deposited data

Results flagged for a closer look

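In 18 sets of the 5 control values that were checked for a value far from the others (the 8 family probes and the named list genes), 3 had one, and chance gives about 1 in 20. On the brighter Lox probe control 5 was at 0.44, while the other controls lay between 0.02 and 0.10. For Loxl1 control 2 was at 1.22, while the others lay between 1.77 and 1.95. For Loxl4 on its brightest probe control 3 was at −3.75, while the others lay between −4.79 and −4.67. No cause was tested for these 3 values.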

How the results depend on the processing

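The count of Loxl1 to Loxl4 past the threshold was 0 in all 7 comparisons under each of the 11 alternatives and each of the 14 fits without 1 array, 174 values in all (the fibre mean was not fitted with the compared groups alone, and with the filter on all arrays Loxl3 and Loxl4 were not tested). Part of these counts could only be 0, since no gene at all passed in some fits. With normexp or with no filter, 0 of all genes passed in VCF and in RCF. Lox stayed above control in VCF, CCF, RCF and the fibre mean under every alternative it was fitted with, and its difference in CCF was 0.48 on the second probe, an alternative chosen after seeing the data. Leaving out 1 array moved Lox between 0.79 and 1.35 in VCF (the highest without VCF 3), between 0.93 and 1.12 in CCF and between 0.82 and 1.01 in the fibre mean. The sign turned for Loxl1 in CCF (−0.53 to 0.0802 over the arrays left out), for Loxl2 in CCF (−0.39 to 0.0123), for Loxl2 in RCF with the mean of probes (−0.0886) and on the second probe (−0.37), and for Loxl3 in VCF with slide as a fixed block (−0.0193). It turned for Loxl3 in RCF without the dim arrays (−0.0304, and −0.0304 to 0.62 over the arrays left out) and for Loxl4 in the fibre mean on its second probe (−0.0516). For Loxl4 in VCF it turned with normexp (0.0708), the authors' table (0.35), without the dim arrays (0.49) and over the arrays left out (−0.59 to 0.49). Thbs1 in CCF turned with the mean of probes (−0.47). The cause was not tested. The CCF call was lost in 8 of 25 alternatives for Slc31a1 and in 10 of 25 for P4ha2, and that of Slc31a1 in the fibre mean in 15 of 24. Thbs1, Hif1a, Tgfbr1, Fbln2 and Col5a2, which did not pass in CCF, passed under 4, 4, 2, 2 and 1 of 25. Calls over all genes moved with the setting too. In CCF 1157 genes rose and 675 fell in the main fit. With the filter on all arrays these were 1673 and 1027, with slide as a random block 1759 and 1194, and without CCF 2 they were 128 and 130. Some gains came where fewer genes passed, as for Thbs1 without control 5 (604 and 273). Tgfbr2 and Slc31a2 passed in CCF under 1 each, Slc31a2 without control 3. In VCF Col3a1 passed under 3 and Pcolce under 1. In the fibre mean P4ha2 passed under 4 and Col3a1 and Fkbp10 under 1 each.

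Replicate number as a block drops control 4 and 5. Deviations from the group means correlated above 0.1 for 12 of 18 pairs of arrays that share a number, and for 11 of 54 other pairs (median r = 0.181 and −0.0352). Of the 12 arrays numbered 1 to 3, 6 correlated best with an array of their own number. Arrays that share a number thus correlated more often than others, and all arrays numbered 1 lay on slide 1. The labels tie the numbers to no batch or litter, and pairing was taken only where every pair exceeded 0.1, so the fit without the block was kept. The block gave 2 calls over all genes in CCF, beside 1832 without it. With the block Lox differed by 1.10 in CCF, RCF minus VCF for Lox was −0.36 (adjusted p = 0.720), and the CCF calls of Slc31a1 (0.63, adjusted p = 0.132) and P4ha2 (0.55, adjusted p = 0.128) were not made. Signal near background limits Loxl3 and Loxl4.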
